A study of Mus musculus with 4 samples.

Results

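The guidance genes are the genes for semaphorins, plexins, neuropilins, Slit and Robo proteins, netrins, Unc5 receptors and Eph receptors, and they were taken by gene symbol from the annotated list of PRDM6 binding peaks in mouse outflow tract smooth muscle cells (SMCs). The families had 60 protein-coding genes, of which 27 had at least 1 peak and 33 had none. These 27 genes held 143 of the 13977 peaks of the list, which named 5243 genes in all. PRDM6 carries a PR domain and zinc fingers, and SMCs express it. The cells were primary cultures from the aortic arch and ductus arteriosus of late-gestation Prdm6 fl/fl mouse embryos, grown in DMEM:F12 with fetal bovine serum, and all of them carried a lentivirus that overexpressed FLAG-tagged PRDM6. The group PRDM6 ChIP had 2 libraries of chromatin precipitated with an anti-FLAG antibody, and the group Input had 2 libraries of chromatin from such cells without precipitation. The assay therefore recorded the tagged, overexpressed protein. The floxed allele was common to both groups. The study treated cultures of this kind with Cre virus in other experiments, and whether any ChIP culture had Cre is not given in the sources used here. One account has both precipitations made from 1 sample and another has them as independent, so the spread between them may be technical. Peaks were called against input, and no value of the Input group itself was used here.

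Guidance molecules steer growing axons, migrating neural crest cells and vessel sprouts by attracting or repelling the cell front. Semaphorins are secreted or membrane-bound ligands of plexins, and most class 3 semaphorins bind neuropilins as coreceptors. Slit proteins are secreted ligands of Robo receptors, netrins are ligands of Unc5 receptors, and Eph receptors are tyrosine kinases that bind ephrins on neighboring cells. In the heart outlet, semaphorin, plexin and neuropilin signals guide the neural crest cells that contribute to the septum and to the SMCs of the great vessels.

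Most guidance peaks were weak, and 1 stood apart. Peaks were matched between both replicates, and the irreproducible discovery rate (IDR) was estimated from their ranks. The global IDR of a peak is the share of irreproducible peaks expected among the peaks ranked at least as high. A global IDR of at most 0.05 was reached by 1 of the 143 guidance peaks (0.699%, 95% Wilson interval 0.124% to 3.85%), where it was reached by 3.33% of the whole list. The interval includes the share of the whole list, and no test was made because the peaks are not replicates. The one peak lay in the first intron of Sema3e, which encodes a class 3 semaphorin known as a ligand of plexin D1 that repels vessel sprouts. It spanned chr5:14073133-14073533 (mm10) with a width of 401 bp, 47857 bp into the gene from its transcription start site (TSS), where the non-coding gene Gm4128 also lies. Its −log10 p was 21.0 in the first-listed and 19.9 in the second-listed replicate, and its global IDR was 0.00186. The list names the replicates only by order, so which sample each is was not known.

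Sequence is shown for this peak and for the strongest peak with an AP-1 or TEAD motif in the Slit, plexin and neuropilin, Robo and Eph families. Sema3a was added after its values were seen, because its window was the only one of a guidance peak with both motifs. AP-1 and TEAD proteins are transcription factors that often bind the same enhancers, and TEAD factors are known to act in SMC gene expression. AP-1 was searched as TGACTCA or TGAGTCA, and TEAD as AGGAATGC, AGGAATGT, GGGAATGC or GGGAATGT, each on both strands and with no overlap between the motifs. Each window covers 201 bases of the plus strand of GRCm38 centered on the summit, the highest point of the peak, and capitals mark the motifs.
Sema3e chr5:14073258-14073458: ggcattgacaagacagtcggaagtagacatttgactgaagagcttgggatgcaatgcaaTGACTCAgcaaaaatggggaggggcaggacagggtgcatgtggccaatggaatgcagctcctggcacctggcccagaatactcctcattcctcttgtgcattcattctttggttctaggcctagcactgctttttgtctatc
Slit3 chr11:34977943-34978143: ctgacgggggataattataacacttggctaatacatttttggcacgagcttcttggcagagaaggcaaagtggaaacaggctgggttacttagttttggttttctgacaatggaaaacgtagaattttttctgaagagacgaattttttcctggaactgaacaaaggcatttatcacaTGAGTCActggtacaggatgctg
Nrp2 chr1:62551604-62551804: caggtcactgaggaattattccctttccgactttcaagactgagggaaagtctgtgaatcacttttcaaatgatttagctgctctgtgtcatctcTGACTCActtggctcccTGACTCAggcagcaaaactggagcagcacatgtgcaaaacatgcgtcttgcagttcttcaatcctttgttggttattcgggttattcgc
Robo2 chr16:74530211-74530411: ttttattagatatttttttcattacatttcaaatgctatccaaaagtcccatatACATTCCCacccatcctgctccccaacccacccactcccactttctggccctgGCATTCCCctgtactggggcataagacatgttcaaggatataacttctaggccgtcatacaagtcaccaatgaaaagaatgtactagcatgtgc
Epha4 chr1:77848468-77848668: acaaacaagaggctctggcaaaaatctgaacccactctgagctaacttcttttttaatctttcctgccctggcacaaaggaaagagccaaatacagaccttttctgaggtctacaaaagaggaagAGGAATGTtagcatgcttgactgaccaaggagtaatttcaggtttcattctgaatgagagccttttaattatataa
Sema3a chr5:12910918-12911118: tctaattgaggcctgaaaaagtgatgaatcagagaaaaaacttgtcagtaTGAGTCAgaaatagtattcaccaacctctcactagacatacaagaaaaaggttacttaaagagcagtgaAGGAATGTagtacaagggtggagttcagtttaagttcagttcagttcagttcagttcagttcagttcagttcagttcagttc
The windows of Sema3e, Slit3 and Sema3a each held 1 AP-1 motif, and that of Nrp2 held 2. The Robo2 window held 2 TEAD motifs, and those of Epha4 and Sema3a held 1 each. In Sema3e the motif was centered 38 bp from the summit and in Slit3 81 bp. At Nrp2 the motifs were 2 bp and 15 bp from the summit. A match describes the letters of the window and does not show that a factor was bound.

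The list gave no read totals, but part of the depth could be read from the p-values, since many of them lay on the tails of a single Poisson distribution. Its mean was 2.61 fragments in the first-listed and 2.39 fragments in the second-listed replicate. Of the 143 guidance values, 96 (67.1%) lay on that series in each replicate, against 58.3% and 63.5% in the whole list, and for these the height of the peak could be recovered. The median height of guidance peaks was 14 fragments in the first replicate of the list and 13 in the second, as in the whole list. At Sema3e the heights were 29 and 27 fragments, which is 11.1 and 11.3 times these means. One more fragment on a peak of 14 fragments moved the −log10 p by 0.792 in the first-listed replicate, so differences of that size between weak peaks rested on single fragments. Of the 66 guidance peaks with a height in both replicates, 33 had at most 15 fragments in each.

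By the median over all peaks, guidance peaks were about as strong as the whole list. The −log10 p of a matched peak, the smaller of the values of both replicates, had a median of 5.36 (quartiles 4.39 and 6.61) over guidance peaks and 5.53 (4.39 and 6.92) over the whole list. Over the strongest peak of each gene the medians were 8.25 and 6.61, but guidance genes with a peak held a median of 5 peaks, where all protein-coding genes with a peak held 2. The strongest of more peaks is higher by construction, so these medians do not compare strength. In the first-listed replicate both medians over all peaks were 6.92, and in the second-listed replicate they were 5.84 and 6.61. The value was higher in the first-listed replicate for 90 of the 143 guidance peaks (62.9%, 54.8% to 70.4%) and for 52.1% of the whole list. The Spearman correlation of the replicates was 0.258 across the 143 peaks and 0.263 across the whole list. The points of such a correlation share libraries and background, so it is given as a description. The lowest score of the list, 48, was held by 68 guidance peaks (47.6%) and 41.4% of all peaks. The median guidance peak was 633 bp wide, the median of the list 600 bp.

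**Figure D1:**
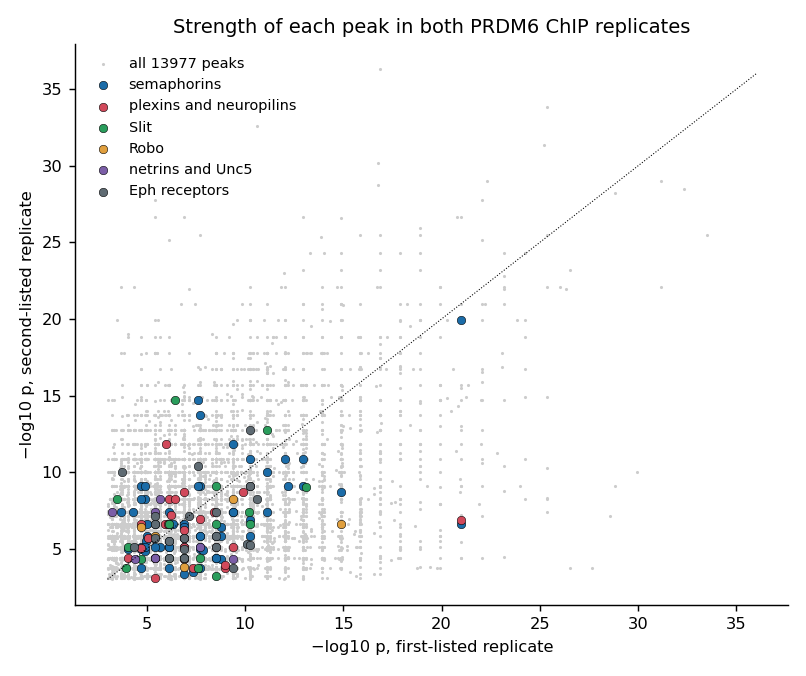
Each point is 1 peak, with its −log10 p in the first-listed replicate on the x axis and in the second-listed replicate on the y axis. Gray points are all 13977 peaks, colored points the 143 guidance peaks by family, and the dotted line marks equal values. The Sema3e peak at 21.0 and 19.9 has the highest lower value of the guidance peaks, followed by the Slit3 peak at 11.1 and 12.8, and the Sema3a and Nrp2 peaks at 21.0 on the x axis are at 6.61 and 6.86 on the y axis.

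Strength in the first-listed replicate alone did not set the Sema3e peak apart, while its 19.9 in the second-listed replicate was the highest guidance value there. An intronic peak of Sema3a, chr5:13477194-13478028, and a peak assigned to Nrp2, chr1:62550071-62553204, had the same −log10 p of 21.0 and the same height of 29 fragments in the first-listed replicate. In the second-listed replicate the Sema3a peak had 6.61 and the Nrp2 peak 6.86. Their global IDR was 0.490 and 0.468. The Nrp2 peak was the widest of the guidance peaks at 3134 bp.

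Every family held genes with a peak and genes without. The share of guidance genes with an assigned peak was 45.0% (27 of 60, 33.1% to 57.5%), where 20.0% of all 21938 protein-coding genes had one. Guidance genes were long, with a median of 87.8 kb against 17.4 kb for all protein-coding genes, and long genes had peaks more often. Among genes of 100 kb or longer, 21 of 30 guidance genes (70.0%, 52.1% to 83.3%) had a peak, beside 55.9% of all 2492 genes of that length. Among genes under 50 kb the counts were 6 of 28 (21.4%, 10.2% to 39.5%) and 12.3%. By family the share was lowest for the netrins and Unc5 receptors (2 of 8, 7.15% to 59.1%). It was highest for the Slit genes (2 of 3, 66.7%, 20.8% to 93.9%). Each family's interval included 45.0%, but families of 3 to 20 genes have wide intervals, and 45.0% is their own pooled share. This overlap therefore does not show that the families are alike. In both length classes the interval of the guidance genes included the share of all genes. Those with a peak had a median length of 156 kb, and those without 27.4 kb. At least 5 peaks were assigned to 15 of the 30 long guidance genes (95% interval of the share 33.2% to 66.8%), and to 15.4% of all genes of 100 kb or longer. Sema3a, Sema3c, Sema3d and Sema3e, 4 of these 15 genes, lie in 1 stretch of chromosome 5, described below, and no test of the difference was made.

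**Figure D2:**
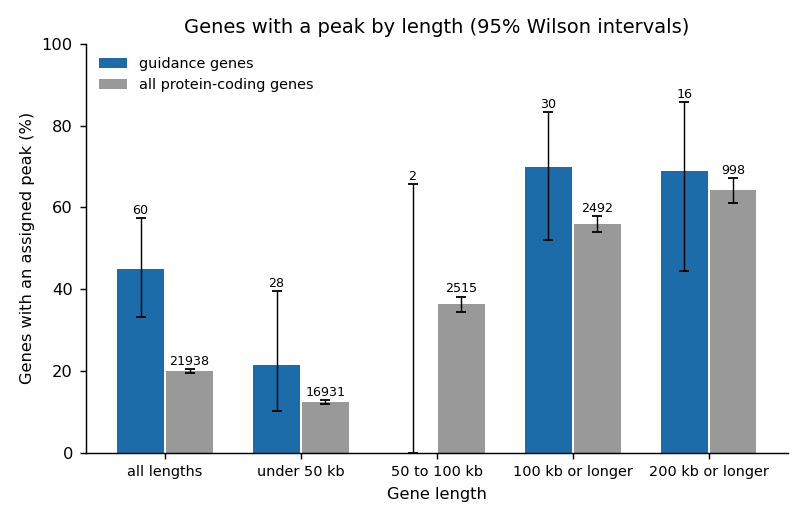
Bars give the percentage of genes with at least 1 assigned peak (y axis) by gene length (x axis), for guidance genes and for all protein-coding genes, with 95% Wilson intervals and the number of genes above each bar. The guidance bar is at 45.0% over all lengths and at 70.0% among genes of 100 kb or longer, where all genes are at 20.0% and 55.9%.

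Among the semaphorins, 9 of 20 genes had 66 peaks. Class 3, the secreted semaphorins, had 46 of these in 4 of its 7 genes. Sema3a, a repellent of axons and neural crest cells that binds neuropilin 1, had 15 peaks, the most of any guidance gene. Sema3d and Sema3e had 12 each, and Sema3c, a ligand known for its part in outflow tract septation, had 7. Sema3b, Sema3f and Sema3g had none. The transmembrane semaphorins had fewer in all than class 3, with 1 peak each for Sema4b and Sema4f, 8 for Sema5a, and 5 each for Sema6a and Sema6d. Sema4a, Sema4c, Sema4d, Sema4g, Sema5b, Sema6b, Sema6c and the membrane-anchored Sema7a had none.

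Sema3a, Sema3c, Sema3d and Sema3e lie on chromosome 5, with Sema3c farther off than the other 3 are from each other, and their 46 peaks made up 32.2% of the guidance peaks. The peaks spanned 5.54 Mb, chr5:12218878-17760433, which held 65 peaks in all and overlapped 21 protein-coding genes. The density there was 11.7 peaks per Mb, compared with 4.65 per Mb over chromosome 5 and 5.31 per Mb over the genome. The stretch was bounded by the members' own peaks, so its density is a description.

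Within this stretch the peaks of a gene differed in strength and place. For Sema3a the values ran from 3.33 to 8.72 with a median of 4.71, and 6 of the 15 peaks had the lowest score. The strongest lay 151254 bp upstream of the TSS at chr5:12973381-12974339, with 14.9 in the first-listed and 8.72 in the second-listed replicate. Toward the 3′ end of the gene, a peak at chr5:13526912-13527664 had 7.59 and 14.7, so it was high in the other replicate. For Sema3d the strongest peak, chr5:12502778-12504656 in intron 5, had 9.37 and 11.8. Of the 201 bases around its summit, 192 were soft-masked as repeat sequence in the reference. The next, in intron 1 at chr5:12430624-12431781, had 12.95 and 9.10, and 1 of its 201 bases was masked. For Sema3c the strongest peak, in intron 2 at chr5:17584172-17584903, had 11.1 and 9.98 and a global IDR of 0.126. A peak 17537 bp upstream of Sema3c, chr5:17556005-17556744, had 12.2 and 9.10. Apart from the reproducible peak, the strongest of the 12 peaks of Sema3e was chr5:13974795-13975150, which lay 50126 bp upstream and had 7.71 and 13.7. It held 2 AP-1 motifs within 16 bp of its summit.

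Sema6a, a ligand of plexins A2 and A4, had 2 of the 4 guidance peaks whose global IDR did not exceed 0.1, and the others were the Sema3e peak and a peak of Slit3. An intron 1 peak 13245 bp from the TSS had 12.95 and 10.9, with a global IDR of 0.0759. A peak annotated to the promoter, 1920 bp from the TSS, had 12.03 and 10.9, with a global IDR of 0.0955, and was the only guidance promoter peak with a −log10 p of at least 8. The single peak of Sema4f, chr6:82908771-82909551, had 10.2 and 10.9 and was 18 fragments high in both replicates. It lay downstream of the gene, 2334 bp outside the gene body. It was 8035 bp from the annotated TSS and 30218 bp from the nearest TSS of the gene in the GENCODE basic models.

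Plexins and neuropilins, the receptors of semaphorins, had 25 peaks in 6 of 11 genes. Both neuropilins had peaks, 7 for Nrp1 and 8 for Nrp2. Nrp1, a coreceptor for class 3 semaphorins and for VEGF, had values from 3.71 to 6.95 and 6 of its 7 peaks in the gene body. Its strongest peak, in intron 12 at chr8:128491187-128491466, had 7.71 and 6.95. Of the 8 peaks of Nrp2, 5 lay inside the neighboring gene Pard3b, which encodes a cell polarity protein, between 122406 bp and 258399 bp upstream. The strongest of these, chr1:62498828-62499826, had 6.92 and 8.72. The annotation gives the nearest TSS and does not show which gene a peak acts on. Plxna2 had 5 peaks, of which 4 had the lowest score, and its strongest peak, 31392 bp upstream, had 8.44 and 7.42. Of the 201 bases around that summit, 117 were soft-masked. Plxna1 and Plxnc1 had 2 peaks each, all outside their bodies, and both Plxna1 peaks lay in Chchd6. Plxnb2 had 1 peak. Plxna3, Plxna4, Plxnb1, Plxnb3 and Plxnd1 had none, and Plxnd1 encodes the receptor of Sema3e. One peak did overlap the body of Plxna4 but was assigned to the antisense gene Plxna4os1, with 6.92 and 6.61.

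Slit and Robo genes carried most of their peaks outside the genes. Slit2, a secreted repellent, had 13 peaks, 10 of them outside its body and up to 615738 bp upstream. Its strongest peak, chr5:47920677-47922034, had 13.1 in the first-listed and 9.03 in the second-listed replicate. A neighboring peak, chr5:47922198-47922976, had 6.42 and 14.7, so the pair had opposite orders in the replicates. Around the summit of the neighboring peak, 181 of the 201 bases were soft-masked. Slit3 had 4 peaks, and its strongest, chr11:34977774-34978566, had 11.1 and 12.8, 142658 bp upstream, with a global IDR of 0.0741. It was the second-highest guidance peak by −log10 p, at 19 and 20 fragments. Slit1 had no peak. Robo2 had 5 peaks, all of them upstream of its body, and 3 had the lowest score. The strongest, chr16:74530214-74530509, had 9.37 and 8.25, 118389 bp upstream, and 124 of the 201 bases around its summit were soft-masked. Another, chr16:74526790-74527100, had 14.9 and 6.61. Robo1 had 1 peak, in intron 2, with 4.71 and 6.39. Robo3 and Robo4, the latter a receptor of endothelial cells, had none.

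Netrins and Unc5 receptors had 7 peaks in 2 of 8 genes. Unc5c had 5, of which 4 lay in intron 1 within the gene, and its strongest, chr3:141396812-141397551, had 5.42 and 7.42. Ntn4, which encodes a netrin of basement membranes, had 2 peaks upstream, the stronger with 5.69 and 8.25. A further 3 peaks inside the body of Ntn4 were assigned to the gene Gm8580, and 1 of them, chr10:93661153-93662290, had 14.9 and 10.9 with a score of 540, the score that stands for a global IDR of 0.05. By position this was the only other peak of such a score in a guidance gene. Ntn1, Ntn3, Ntn5, Unc5a, Unc5b and Unc5d had no peak. In all, 8 peaks in the bodies of guidance genes were assigned to other genes, and Plxna4 was the only gene with such a peak and none of its own.

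Eph receptors had 22 peaks in 6 of 14 genes, 19 in 4 of 9 EphA genes and 3 in 2 of 5 EphB genes. Epha3 and Epha4 had 7 each and Epha7 had 4. The strongest Epha3 peak, chr16:63958145-63958620, and the strongest Epha7 peak, chr4:28541767-28542773, both had 10.2 in the first-listed and 9.10 in the second-listed replicate, and both lay upstream, by 93970 bp and 270358 bp. Of the 201 bases around the summit of this Epha7 peak, 131 were soft-masked. The strongest Epha4 peak, chr1:77538294-77539027, had 10.6 and 8.25 and lay 23206 bp upstream. Ephb2, a receptor of B-type ephrins, had 1 peak, in intron 3 at chr4:136731304-136731769, with 10.2 and 12.8, the highest value of the family. Its global IDR was 0.115. Ephb3 had 2 peaks and Epha1 had 1. Epha2, Epha5, Epha6, Epha8, Epha10, Ephb1, Ephb4 and Ephb6 had none. Epha6, with 952 kb the longest guidance gene, was among them.

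**Figure D3:**
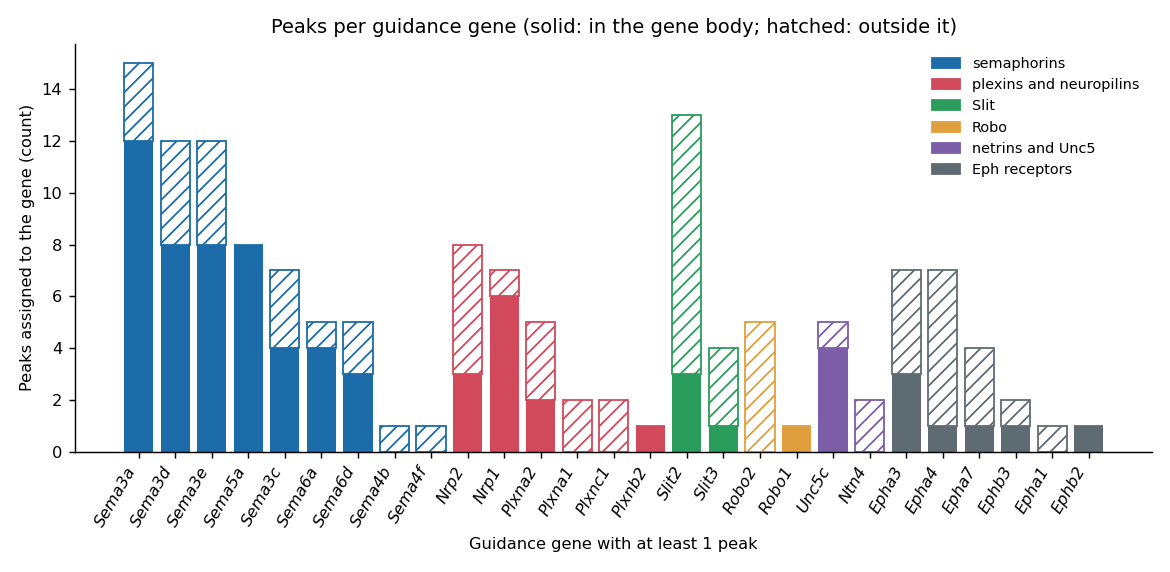
Bars give the number of peaks assigned to each of the 27 guidance genes with a peak (y axis), by gene (x axis) and colored by family. Solid bars are peaks in the body of the gene and hatched bars peaks outside it. Sema3a has 15 peaks and Slit2 has 13, of which 10 are outside the gene.

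Most guidance peaks lay far from promoters. By the deposited annotation, 59 peaks (41.3%, 33.5% to 49.5%) were intronic, 55 (38.5%, 30.9% to 46.6%) distal intergenic, 23 (16.1%, 11.0% to 23.0%) within 3 kb of a TSS and 6 (4.20%) exonic. In the whole list these shares were 35.9%, 37.2%, 21.3% and 4.10%. Each of the whole-list shares lay within the interval of the guidance peaks. Taking only the strongest peak of each gene, 7.41% of the 27 guidance peaks were at promoters, against 24.2% of such peaks of the whole list. Guidance genes with a peak held a median of 5 peaks to pick from, and all protein-coding genes with a peak held 2. These shares therefore do not compare the sets evenly. First introns held 17 of the 59 intronic peaks (28.8%), and 35.2% in the whole list. The median distance to the TSS was 59.0 kb, against 22.7 kb, and 50 peaks (35.0%, 27.6% to 43.1%) lay more than 100 kb away, against 19.3%. Guidance genes were also longer than others, and the part of gene length in these distances was not tested.

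Relative to the gene models, 75 guidance peaks (52.4%, 44.3% to 60.5%) overlapped the body of their own gene, beside 53.4% of all peaks assigned to protein-coding genes. Of the 68 others, 60 (88.2%, 78.5% to 93.9%) lay upstream and 8 downstream. Upstream peaks were 66.2% of the 5303 such peaks of all protein-coding genes, which is below the interval of the guidance peaks. Slit2, Robo2, Nrp2 and the Eph genes Epha3 and Epha4 gave 28 of the 60. Peaks of 1 gene share a neighborhood, so the interval, which treats them as separate, is too narrow.

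**Figure D4:**
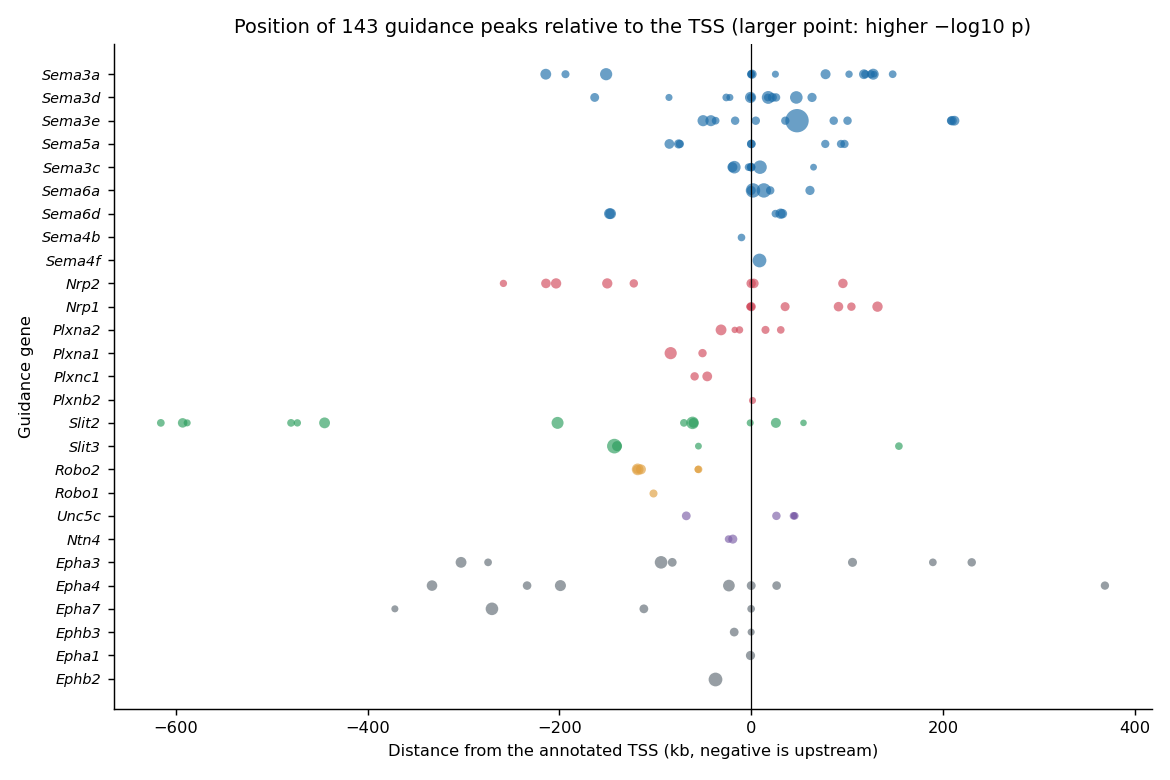
Each point is 1 of the 143 guidance peaks, placed by its distance from the annotated TSS in kb (x axis, negative upstream) in the row of its gene (y axis), and larger points have a higher −log10 p. Slit2 peaks reach 615738 bp upstream, and the largest point is the Sema3e peak in intron 1.

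By the deposited annotation, peaks overlapped a TSS in 9 genes, 11 peaks in all (7.69%, 4.35% to 13.2%, against 6.64% of the list). Sema3a and Sema3c had 2 each, and Epha7, Ephb3, Nrp1, Nrp2, Sema3d, Sema5a and Sema6a had 1. By the GENCODE basic models, 6 of the 11, in 6 genes, overlapped a TSS of the gene. From the nearest transcript start of those models, the Sema3d peak was 191871 bp and the Sema3a peak at chr5:13125513 270952 bp away. The peaks of Epha7, Nrp1 and 1 of Sema3c were 1988 bp, 396 bp and 328 bp away. The Sema3a gene as a whole, however, begins 99 bp from this Sema3a peak, and the Nrp1 peak overlaps the start of the Nrp1 gene. The values of the 11 peaks ranged from 3.70 to 5.99 by the smaller of both replicates. The highest was that of Nrp2, with 5.99 in the first-listed and 11.8 in the second-listed replicate. The Sema6a peak at the TSS had 10.2 and 5.84, and that of Ephb3 had 3.75 and 9.98, so each of the 3 differed between the replicates. For Nrp1 the values were 4.71 and 6.61, for Epha7 4.33 and 5.10, for Sema5a 5.00 and 6.61, and for Sema3d 7.71 and 4.98. The Sema3c peaks had 5.42 and 6.61, and 4.71 and 8.25. The Sema3a peaks had 3.70 and 7.42, and 4.93 and 8.25. All 4 were higher in the second-listed replicate, as the Nrp1, Epha7 and Sema5a peaks were.

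AP-1 motifs were found at more summits than flanks. Of the 143 windows, 17 (11.9%, 7.56% to 18.2%) held an AP-1 motif within 100 bp of the summit, and 5 (3.50%, 1.50% to 7.92%) held one in flanks 1000 bp away with as many positions. In the whole list the shares were 14.3% and 3.92%. A TEAD motif was found at 8 summits (5.59%, 2.86% to 10.7%) and 4 flanks (2.80%, 1.09% to 6.97%), beside 7.45% and 3.23% in the whole list. The guidance intervals contained the shares of the whole list for both motifs. Together 24 peaks of 15 genes held a motif. Of the 22 Eph peaks 1 held an AP-1 and 1 a TEAD motif, of the 17 Slit peaks 3 and 2, and of the 66 semaphorin peaks 9 and 4. Of the 23 promoter peaks 1 held an AP-1 motif and 0 a TEAD motif, with an upper Wilson limit of 14.3% for TEAD, where 8.33% and 6.25% of all promoter peaks held them. The motif with the reproducible Sema3e peak was therefore 1 of 9 AP-1 windows among semaphorin peaks. Guidance windows had a median GC content of 42.3%, against 43.8%, and 16 (11.2%) were more than 50% soft-masked, against 7.81%.

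**Figure D5:**
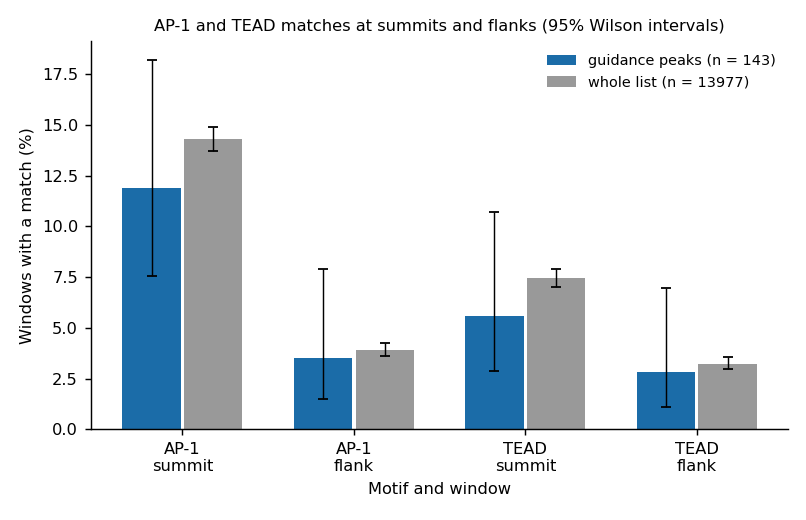
Bars give the percentage of windows with an AP-1 or TEAD motif (y axis) at the summit or in its flanks (x axis), for the 143 guidance peaks and for all 13977 peaks, with 95% Wilson intervals. AP-1 is at 11.9% at guidance summits and 3.50% at their flanks, and TEAD at 5.59% and 2.80%.

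Genes that act with the guidance receptors were counted from a list chosen for their known roles. Of 46 partners, 27 (58.7%) had 140 peaks, where 20.0% of all protein-coding genes had a peak. Among the 24 partners of 100 kb or longer, 18 had one, beside 55.9% of all genes of that length. Among Slit-Robo effectors 7 of 8 had a peak, with 6 for Enah, which encodes an actin regulator at the cell front. Among Eph effectors 7 of 9 had one, among semaphorin-plexin effectors 7 of 13, and among other netrin and repulsive guidance genes 4 of 8. A single partner reached that IDR limit of 0.05, Rasa1, which encodes a Ras GTPase activating protein, with a −log10 p of 15.8 and an IDR of 0.00955. Among the ephrin ligands of the Eph receptors 2 of 8 genes had a peak, Efna5 and Efnb2, with 24 each, none at a global IDR of at most 0.05. The 8 ligand genes thus held 48 peaks where the 14 receptor genes held 22. Of the 48 ligand peaks, 40 (83.3%) lay more than 100 kb from the TSS. So did 12 (54.5%) of the 22 receptor peaks and 19.3% of the whole list. Peaks were assigned to the nearest TSS, so these counts do not show which of the genes were bound more. Cadherins, another family of cell surface proteins, had 37 peaks in 9 of 23 genes. These differences were not tested.

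The peak list holds no expression values, so it does not show which guidance genes the cells used, and marker expression could not be checked in it. The study's methods describe most of the cultured cells as positive for smooth muscle markers. Of the smooth muscle genes, Acta2 had 3 peaks and Myh11, Tagln and Cnn1 had 0. Of genes that mark other cell types, the endothelial Cdh5 had 1 peak, and Pecam1, Sox10 and Tubb3 had 0.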

How the data were processed

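Sample groups followed the titles of the 4 libraries. The authors aligned reads to mm10 with BWA, called peaks with MACS2 for either precipitation against input (versions not given in the sources used here), matched them by IDR and annotated them. The deposited scores are scaled IDR values, and the deposited −log10 p-values are those of MACS2 for each replicate, with the smaller one for the matched peak. Other deposited columns gave positions and gene names. Signal and q-value columns held a placeholder, and the annotation's q-value column equaled the second-listed −log10 p in all 13977 rows.

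Members were matched by symbol to GENCODE M21 basic gene models, and sequence came from RefSeq GRCm38. Both are the mm10 build. Members and lists were chosen with earlier results of these data known. All members were accounted for by name, and values were given for genes that had a peak at the IDR limit of 0.05, a TSS peak or a promoter peak with a −log10 p of at least 8, were among the 3 with most peaks of a family, or had 1 of the 5 strongest peaks (a tie at 10.2 made this 6). The peaks in Plxna4 and Ntn4 that were assigned to other genes were added after their values were seen. Limits of IDR were applied as scores of 540 (0.05), 830 (0.01) and 415 (0.1). No test was made between groups, since peaks are not replicates and the lists hold no Input values. Intervals are 95% Wilson intervals and cover counting error only. Heights were recovered where a −log10 p lay within 0.0002 of a Poisson tail. On simulated data, 200 of 200 planted motifs and 3000 of 3000 heights were recovered. Scripts ran in Python 3.11.15 with SciPy 1.17.1, pandas 2.3.3 and NumPy 2.4.6. Unused per-sample columns numbered 0. Alternatives were IDR limits, distances, gene models, replicates, motif windows and the removal of the class 3 semaphorins of chromosome 5.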

Additional observations from a re-analysis of the deposited data

How the results depend on the processing

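Of 58 alternative values for 12 results, 33 lay within the tolerance set for the value and 25 did not. The tolerance was 1.5 times a count, the 95% interval of a share (Wilson) or of the median width (order statistics), the SD of both replicates for the median −log10 p, and 0.1 for a correlation. It is wide for rare features, and it holds the 2.80% of peaks at an IDR limit of 0.1 and the 10.5% with TEAD within 200 bp of the summit. Of these alternatives, 8 were chosen after seeing the data, and 7 of the 8 lay within it. A global IDR limit of 0.05 left 1 guidance gene and 1 peak, also among genes of 100 kb or longer, and a limit of 0.01 left the same 1. That peak alone sets the shares under the 0.05 limit, which were 0% at promoters, 100% in introns, 0% distal intergenic, 100% with AP-1, 0% with TEAD and a width of 401 bp. Without Sema3a, Sema3c, Sema3d and Sema3e, 0% of the remaining 97 peaks reached an IDR of 0.05. The 143 peaks fell to 93 within 100 kb of the TSS, 75 above the lowest score and 65 above the median strength of the list. Counted by position instead, 93 peaks lay in the body of a guidance gene or within 10 kb of it, whatever gene they were assigned to. With 200 kb as the limit, 11 of 16 long genes (68.8%) had a peak, beside 64.2% of all genes of that length. The median −log10 p was 6.92 in the first-listed replicate alone and 8.25 over the strongest peak of each gene, where the whole list had 6.92 and 6.61. With 1 peak a gene, 7.41% of 27 were at promoters and 48.1% distal intergenic, and the correlation of replicates was 0.683, where the whole list had 24.2%, 35.9% and 0.486. Guidance genes held more peaks to pick from, so values over 1 peak a gene, with the median of 8.25, do not compare the sets evenly. The AP-1 share was 6.99% within 50 bp and 26.6% within 200 bp, where the whole list had 7.61% and 26.2%. With the core GGAATG the TEAD share was 16.8%, and that of the whole list was also higher than with the longer motif and above the guidance share. No paired analysis was possible because the peak list names replicates only by order and holds no Input values.

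The peak list holds matched peaks only, so neither replicate was left out of it. A peak missed in 1 replicate is absent from it, so a gene without a peak is a gene without a matched peak at this depth. The weakest heights differed from the median by a few fragments.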
